A study of Drosophila melanogaster with 6 samples.

Results

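The fly genome holds 5 genes for serotonin receptors, 5-HT1A, 5-HT1B, 5-HT2A, 5-HT2B and 5-HT7, and this account follows them in T4/T5 neurons of Drosophila melanogaster with and without knockdown of Drgx. They were picked by name out of 23932 annotated features, with the comparison of knockdown against control in view, so their differences are given as a description, with standard errors and no p-values. T4/T5 neurons are the direction-selective cells of the optic lobe, and Drgx encodes a paired-like homeobox transcription factor. Cells labelled with GFP were sorted from dissociated brains of climbing larvae of the third instar raised at 25 °C, and RNA-seq was run on 3 libraries per group. Both groups carried UAS-CD8-GFP, a membrane marker, and the driver R23G12-Gal4, each in a single copy. Controls had a hairpin named UAS-cherry-IR, directed at a fluorescent protein, opposite the driver, and the homologue of the marker chromosome was wild type (+). Knockdown animals had UAS-DRGX-IR opposite the marker, and + opposite the driver. By the order of the genotypes the hairpins therefore sit on different chromosomes, and an effect of transgene position and the knockdown cannot be told apart. The driver sets which cells were sorted and which received the hairpin. The labels do not say how many brains were pooled per library or that libraries came from separate crosses, so p-values measure the spread between these libraries.

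Serotonin is a monoamine released by a small number of widely branching neurons in the insect brain, where it modulates the gain of sensory circuits, sleep, feeding and aggression. Its fly receptors are all coupled to G proteins, with no serotonin-gated ion channel among them. The 5-HT1 types couple to inhibitory G proteins and lower cyclic AMP, 5-HT7 couples to the stimulatory G protein and raises it, and the 5-HT2 types act through phospholipase C and calcium.

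Library totals ran from 29587960 to 44054609 counts. Drgx itself was at 2110, 2156 and 2160 CPM (counts relative to library size, scaled with the TMM factors of edgeR) in control and at 729.0, 728.7 and 663.4 CPM in knockdown, so that 33.01% of its control level was left. Gene counts do not separate its messenger RNA from transcripts of the hairpin. All 8 markers chosen for T4/T5 neurons were detected and 4 of them (SoxN, Sox102F, dac and bi) passed the test as lower, where 4.11% of all tested features did. Their sums were 4992 to 5278 CPM in control and 3323 to 3493 CPM in knockdown. Of the other 4, acj6 was at 116.3% of its control level without overlap of the groups (edgeR adjusted p 0.071), TfAP-2 at 97.21%, grn at 95.56% and ato at 82.05%. Knockdown replicate 2 lay apart on the second principal component, at 32.09 against −19.21 and −18.67 for replicates 1 and 3, and had no count for 325 of the 9932 features tested, where the other libraries had none for 118 to 171. Marker sums of other cells are given beside the results they move with.

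5-HT1A (FBgn0004168), an inhibitory receptor gene on 2R from 19067155 to 19121958 in BDGP6.54, was the predominant serotonin receptor gene of control T4/T5 cells and was nearly lost in knockdown. Control libraries held 2337, 2914 and 2498 counts, or 72.93, 67.01 and 72.51 CPM. Knockdown libraries held 59, 73 and 50 counts, or 1.82, 2.49 and 1.32 CPM. Every knockdown library was far below every control library, and control values lay within a narrow band. The mean was 70.82 ± 3.31 CPM in control and 1.88 ± 0.583 CPM in knockdown (SD, n = 3 each), so that 2.65% was left, and the fitted log2 difference was −5.25 (SE 0.212). Per kilobase of merged exon, 5-HT1A stood above 70.76% of 13920 protein-coding genes in control and above 42.59% in knockdown. In sorted bulk cells, fewer cells of the type that carries the transcript and less RNA per cell cannot be told apart.

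5-HT1B (FBgn0263116), the other gene for a receptor that lowers cyclic AMP, lies on 2R from 19022325 to 19032642. Its control libraries held 134, 277 and 168 counts, which were 4.18, 6.37 and 4.88 CPM. In knockdown the counts were 106, 92 and 157, or 3.27, 3.13 and 4.16 CPM. The groups did not overlap, but the highest knockdown library and the lowest control library were almost level. Means were 5.14 ± 1.12 and 3.52 ± 0.555 CPM (SD, n = 3 each), a log2 difference of −0.55 (SE 0.315), and 68.46% of the control level was present in knockdown. Without control replicate 2, the highest library, the difference was −0.36.

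5-HT2A (FBgn0087012, 3R, 4612870 to 4633304), which encodes a receptor linked to calcium release, was lower still in level and less even between libraries. Counts were 84, 217 and 102 in control and 73, 53 and 4 in knockdown. In CPM these were 2.62, 4.99 and 2.96 against 2.25, 1.81 and 0.106. The groups did not overlap, yet the gap between them was small and knockdown replicate 3 was far below its group. The log2 difference was −1.35 (SE 0.817) over all 6 libraries and −0.80 without knockdown replicate 3. By limma-voom it was −2.34, so the size of this difference depended on 1 library and on the method.

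The last pair, 5-HT2B and 5-HT7, did not pass the expression filter, and no difference was fitted. 5-HT2B (FBgn0261929, 3R, 8578205 to 8629996), also of the calcium-linked type, had 20 counts in control replicate 3, 32 counts in knockdown replicate 1 and 0 counts in the other 4 libraries. A count of 0 allows up to 3 counts, which is 0.069 to 0.102 CPM depending on the library, and this covers counting error only. 5-HT7 (FBgn0004573, 3R, 30968236 to 31016875), the receptor gene that raises cyclic AMP, had 5, 64 and 0 counts in control and 2, 37 and 1 counts in knockdown. Replicate 2 held 92.75% of its control counts and 92.5% of its knockdown counts. 5-HT2B thus had all its reads, and 5-HT7 most of them, in 1 library per group, at 0.581 to 1.47 CPM there, and the groups overlapped for both.

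Of the 5 genes, 3 passed the expression filter of the whole-table test, and 5-HT1A alone was among the features called by it (edgeR adjusted p under 0.05), which the choice of genes had used and which is no support for it; 4.11% of all tested features were called lower 2.1% higher and 6.21% in either direction. All 3 had non-overlapping groups with knockdown lower, against 12.4% of tested features. Since the genes were chosen with this comparison known, nothing is read from those counts. The median log2 difference over all tested features was 2.7e-05, a value that the TMM scaling sets near 0.

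**Figure D1:**
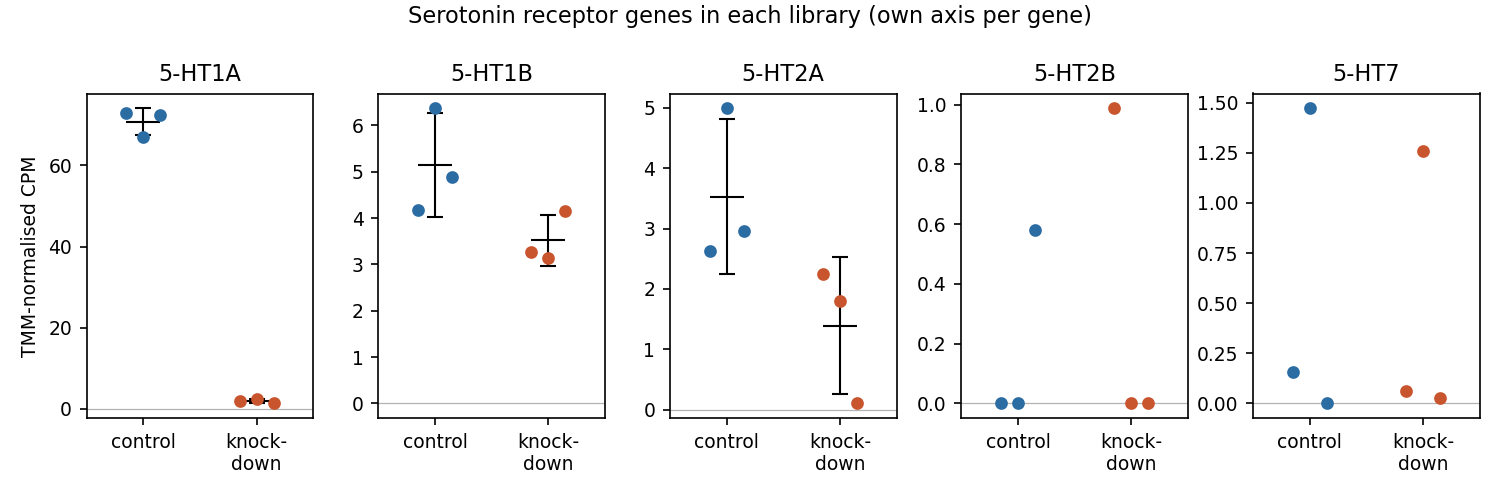
Points are TMM-normalised CPM of each library, with controls in blue and Drgx knockdown in orange, and each gene has its own axis; bars show the mean and SD of 3 libraries for the genes that passed the filter. 5-HT1A goes from 67.01 to 72.93 CPM in control to 1.32 to 2.49 CPM in knockdown, while 5-HT2B has reads in 1 library per group and 5-HT7 has most of its reads in replicate 2 of each group.

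Levels of different genes were compared per kilobase of merged exon. In control the order was 5-HT1A at 14.11 ± 0.659, 5-HT1B at 1.28 ± 0.278, 5-HT2A at 0.651 ± 0.237, 5-HT7 at 0.121 and 5-HT2B at 0.0306 CPM per kb. The top 3 did not overlap with their neighbours in any library, nor did 5-HT2A and 5-HT7, while 5-HT7 and 5-HT2B overlapped. In knockdown the order was 5-HT1B at 0.875 ± 0.138, 5-HT1A at 0.374 ± 0.116 and 5-HT2A at 0.257 ± 0.209 CPM per kb, with 5-HT7 at 0.1 and 5-HT2B at 0.052. There 5-HT1B was above 5-HT1A in each library, and 5-HT1A, 5-HT2A and 5-HT7 overlapped. The ratio of 5-HT1A to 5-HT1B per kilobase was 13.99, 8.44 and 11.93 in control and 0.447, 0.637 and 0.256 in knockdown.

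Summed over the 5 genes, the receptor level was 16.09, 16.18 and 16.3 CPM per kb in control and 1.76, 1.89 and 1.32 CPM per kb in knockdown. The knockdown mean of this sum was 10.24% of the control mean. 5-HT1A made up 90.32%, 82.5% and 88.65% of the sum in control and 20.6%, 26.23% and 19.96% in knockdown. Its mean share was 87.15% ± 4.12 and 22.26% ± 3.46 (SD, n = 3 each). With 5-HT1A left out, the remaining 4 genes summed to 1.56, 2.83 and 1.85 CPM per kb in control and 1.4, 1.39 and 1.06 CPM per kb in knockdown. The groups did not overlap in this remainder either, but they lay close together, at 1.56 for the lowest control and 1.4 for the highest knockdown library.

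**Figure D2:**
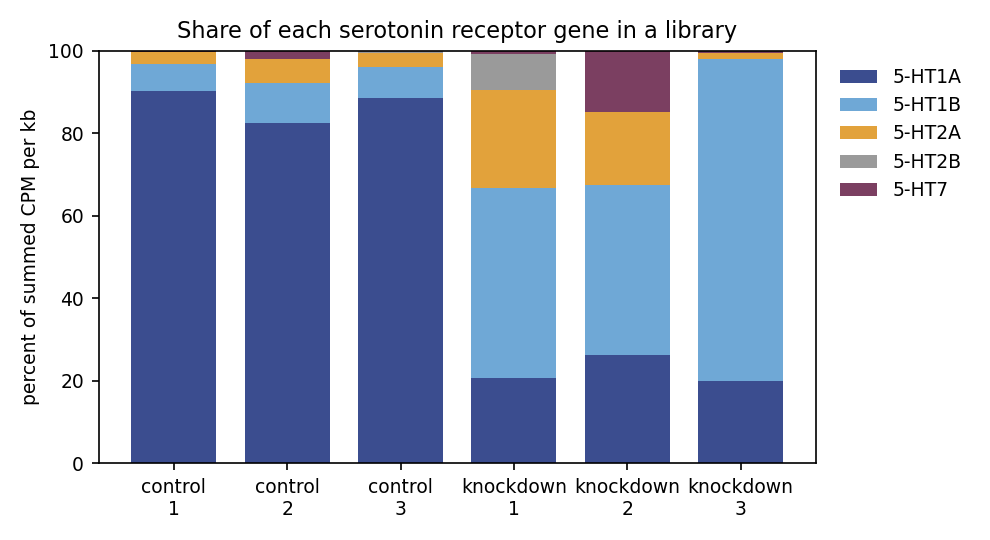
Stacked bars give the percent of the summed serotonin receptor level, in CPM per kb of merged exon, that each gene held in each library. 5-HT1A holds 82.5% to 90.32% in control and 19.96% to 26.23% in knockdown, where 5-HT1B holds 41.22% to 78.12%.

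In their gene structure 5-HT1A and 5-HT1B form a pair that the choice of genes did not rest on. They lie on opposite strands of 2R, 34512 bp apart, with 3 protein-coding genes between them. In the transcript with the longest coding sequence, 5-HT1A has 10 coding exons for 846 residues and 5-HT1B has 8 for 629. The internal coding exons include 4 of equal length in the same order in both genes, of 134, 110, 190 and 138 bp, and no internal coding exon length was shared in any other pair of the family. 5-HT2A has 7 coding exons, 5-HT2B has 6, and 5-HT7 is coded by 1 exon. In BDGP6.54 none of the 5 genes shares exon sequence with another annotated feature. The annotation release used for counting is not given, so this covers the exon models used here only.

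The 5-HT1A locus was examined for whether its neighbours moved with it. Ir56a (FBgn0050125, 2R, 19094267 to 19096174), which encodes a member of the ionotropic receptor family, lies on the opposite strand inside an intron of 5-HT1A. It had 78, 62 and 15 counts in control, whereas no read was counted in the 3 knockdown libraries. Its control mean of 1.43 CPM was 15.66-fold above the mean knockdown floor of 0.0914 CPM, set at 3 counts per library. That ratio leaves out the spread of the controls (SD 0.999 CPM), where replicate 3 was at 0.435 CPM. Its edgeR adjusted p was 0.0116. Ir56a passed the expression filter through control alone, so this p is no support that it moved with 5-HT1A. The edgeR adjusted p rose to 0.0699 without control replicate 1 and 0.0596 without control replicate 2. Whether counting used strand or introns is not stated, so reads from the 5-HT1A intron and from Ir56a cannot be told apart. CG15117, which starts 273 bp beyond the end of 5-HT1A, had 125, 136 and 54 counts in control and 9, 1 and 84 in knockdown, groups that overlap (log2 difference −1.74, SE 1.04, edgeR adjusted p 0.485). Its difference was −4.15 (edgeR adjusted p 0.0507) without knockdown replicate 3, −2.87 with limma-voom and −1.19 without knockdown replicate 2, none of which passed.

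Towards 5-HT1B, the 3 genes that lie between the receptor genes, CG15109, Gpxl and CG15115, had 0 counts in all libraries. Beyond CG15117, among genes chosen after their values were seen, botv was at 99.2 CPM in control and 109.4 CPM in knockdown, and ena at 753.3 and 789.9 CPM (group means). Most neighbours of the other receptor genes were silent. CG9775 beside 5-HT2A was at 89.96% of its control level in knockdown, Cenp-C beside 5-HT2B at 107.5%, and a copy of the transposon roo inside 5-HT2B at 76.04%, and none of these passed the test.

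**Figure D3:**
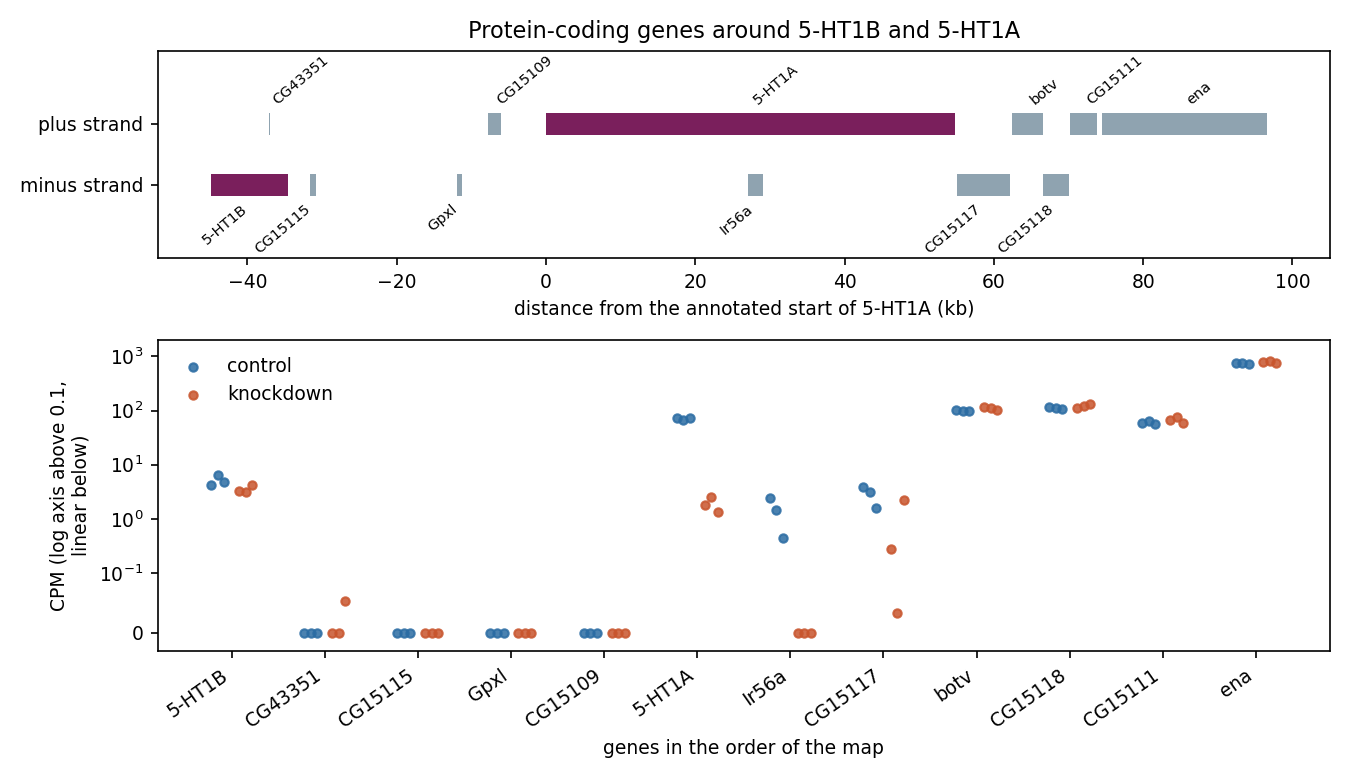
The upper panel maps protein-coding genes by strand against distance from the annotated start of 5-HT1A in kb, with the receptor genes in purple; the lower panel gives CPM per library for the same genes, on an axis that is logarithmic above 0.1 and linear below. 5-HT1A and the nested Ir56a are separated between groups, whereas botv, CG15118, CG15111 and ena lie at similar levels in both groups and the genes between 5-HT1B and 5-HT1A are at 0.

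The features with a profile most like 5-HT1A were sought by the root mean square difference of centred log2(CPM + 0.5) over the 6 libraries. The nearest was CG34393, at 0.152, which went from 50.84, 59.6 and 61.71 CPM in control to 1.24, 1.47 and 0.927 CPM in knockdown. CG10936 followed at 0.399, from 17.57 to 28.65 CPM in control to at most 4 counts in a knockdown library. Then came Sytalpha at 0.54, a gene of the synaptotagmin family of vesicle proteins, with 152.8 ± 5.58 and 9.99 ± 1.52 CPM (SD, n = 3 each). Pde1c, which encodes a cyclic nucleotide phosphodiesterase, was at a distance of 0.582 with 69.78 ± 9.65 and 4.16 ± 0.522 CPM, and CG42750 at 0.664. Sytalpha, Pde1c and CG42750 share 40, 332 and 197 bp of exon with other annotated features, and their values are uncertain to that extent. Being alike over 6 libraries in 2 groups mainly means having a similar difference between the groups on this scale. The added 0.5 CPM shrinks falls to levels near 0, so fitted differences can lie further apart. Fitted log2 differences were −5.58 for CG34393, −8.72 for CG10936, −3.94 for Sytalpha, −4.06 for Pde1c and −3.83 for CG42750, against −5.25 for 5-HT1A.

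To place the receptors in their pathway, 6 lists of other genes were examined with 64 genes in the count table, of which 56 were tested. By edgeR's adjusted p over all features, 4 passed, 1 higher and 3 lower in knockdown. That is 7.14% of those tested, close to the 6.21% of all features. An unadjusted edgeR p under 0.05 was found for 16 of the 56, and for 1630 of all 9932 tested features. The 16 include 2 for phospholipase C and calcium, 3 for kinases, arrestins and RGS, and 4 for other amine receptors. The lists were chosen with earlier results known, so nothing is read from these counts.

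Genes that make, store or clear serotonin were low, with no group mean above 4.39 CPM. Trhn, the neuronal tryptophan hydroxylase that starts serotonin synthesis, was at 0.868 ± 0.304 CPM in control and 1.40 ± 0.21 CPM in knockdown, and SerT, the plasma membrane serotonin transporter, at 0.429 and 0.473 CPM (SD, n = 3 each). None of 5 tested genes passed with edgeR, and 0 had an unadjusted p under 0.05; the median log2 difference was 0.34. Vmat, the vesicular monoamine transporter, was at 3.47 and 4.39 CPM and shares 2129 bp of exon with other features. Pu and Ddc, enzymes of pterin cofactor and of monoamine synthesis, had log2 differences of −0.54 (SE 0.38) and 0.95 (SE 0.463). Hn, the phenylalanine hydroxylase gene, was at 0 in all libraries. As markers of serotonergic neurons, Trhn, SerT, Vmat and Ddc summed to 5.82 to 6.99 CPM in control and 9.16 to 9.78 CPM in knockdown, with none of the 4 at 0 in every library and none passing.

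Among G protein subunits, the alpha, beta and gamma genes with the highest levels differed little between groups, while Galphaf was at 0.539 and 0.434 CPM and Gbeta76C had no count. None of 10 tested subunits passed with edgeR, and 2 had an unadjusted p under 0.05; the median log2 difference was −0.05. Galphao, an inhibitory alpha subunit prominent in neurons, was at 861.3 ± 38.9 CPM in control and 781.6 ± 16.8 CPM in knockdown (SD, n = 3 each), a log2 difference of −0.14 (edgeR adjusted p 0.198). Galphai, the other inhibitory alpha subunit, was at 62.79 and 64.6 CPM, and Galphas, the stimulatory one, at 159.8 and 158.5 CPM. Galphaq, which activates phospholipase C, was at 229.4 CPM in both groups. Gbeta13F was at −0.20 (edgeR adjusted p 0.0689) and passed with DESeq2 and with limma-voom, and Ggamma1 was at 0.06.

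Downstream, none of 16 tested genes on the cyclic AMP list passed with edgeR, with 5 at an unadjusted p under 0.05. Their median log2 difference was −0.06. The list left out Pde1c, the phosphodiesterase gene named above for its likeness to 5-HT1A, which was at 5.96% of its control level in knockdown. Pka-C1, the main catalytic subunit of protein kinase A, was at 722.9 ± 8.16 CPM in control and 691.2 ± 12.6 CPM in knockdown (SD, n = 3 each). The phosphodiesterase gene dnc was at a log2 difference of −0.11 (SE 0.124) and the regulatory subunit Pka-R1 at −0.13 (SE 0.0961). Of low genes, the adenylyl cyclase Ac76E had 0, 10 and 0 counts in control and 33, 85 and 75 in knockdown. Its edgeR adjusted p was 0.0732 in the fit over all libraries, and its adjusted p by DESeq2 was under 0.05. Ac76E passed the expression filter through knockdown alone, so these values are no support for a rise.

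Among 9 tested genes of phospholipase C signalling and calcium release, 2 passed and both fell, with a list median of −0.07. Pkc98E, a protein kinase C, fell from 83.19 ± 3.13 to 60.72 ± 3.78 CPM (SD, n = 3 each; log2 difference −0.45, SE 0.0947, edgeR adjusted p 0.0182). Cam, which encodes calmodulin, fell from 592.9 ± 75.1 to 438.6 ± 35.6 CPM (−0.44, SE 0.0966, edgeR adjusted p 0.0255). Each of these 2 calls was lost without control replicate 2 or 3 and without knockdown replicate 1 or 3, at edgeR adjusted p of 0.0578 to 0.127. Cam shares 199 bp of exon with other features. CaMKII, norpA and Plc21C, the latter 2 coding for phospholipases, were at 0.01, −0.01 and 0.24 and did not pass.

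Of 6 tested genes for receptor kinases, arrestins and regulators of G protein signalling (RGS), 1 passed, with a list median of −0.11. loco, an RGS gene that shortens signalling by inhibitory alpha subunits and is known from glia as well as neurons, rose from 21.85, 24.86 and 32.51 CPM in control to 51.24, 43.09 and 47.57 CPM in knockdown (log2 difference 0.84, SE 0.161, edgeR adjusted p 0.0116). The call was lost without control replicate 2 (0.0694) or knockdown replicate 1 (0.0549), and the gene shares 1032 bp of exon with others. The 7 glial markers summed to 147.5 to 191.9 CPM in control and 240.5 to 250.7 CPM in knockdown, with none at 0. Of the 7, 1 passed (Gs2, at 168.1% of control), as higher, where 2.1% of tested features did. The glial marker repo was level, at 9.736 CPM in control and 9.816 CPM in knockdown, while the others were at 125.8% to 168.2% of control. The part of glial RNA in the loco result was not tested. Gprk1 and Gprk2, which encode receptor kinases, were at −0.05 and −0.18, and krz, the non-visual arrestin, at −0.28 (edgeR adjusted p 0.106). The visual arrestin genes Arr1 and Arr2 had no count.

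The nearest relatives of the serotonin receptors are the receptors for dopamine, octopamine and tyramine. Of 10 tested, Octbeta1R, an octopamine receptor that raises cyclic AMP, passed. It had 9.11, 15.2 and 16.72 CPM in control and 3.49, 1.53 and 1.56 CPM in knockdown, so that the groups were well apart. The fall from 13.68 ± 4.03 to 2.19 ± 1.12 CPM (SD, n = 3 each) was a log2 difference of −2.64 (SE 0.385, edgeR adjusted p 0.00211), and it passed in every alternative run. DopEcR, a receptor for dopamine and ecdysteroids, was at 18.05 and 17.89 CPM. Octalpha2R, an octopamine receptor, was at 14.74 and 27.33 CPM (0.89, SE 0.293, edgeR adjusted p 0.132), and Octbeta3R at −0.25. Summed over the 12 genes, these receptors held 52.65 to 62.96 CPM in control and 54.02 to 66.39 CPM in knockdown, overlapping ranges.

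**Figure D4:**
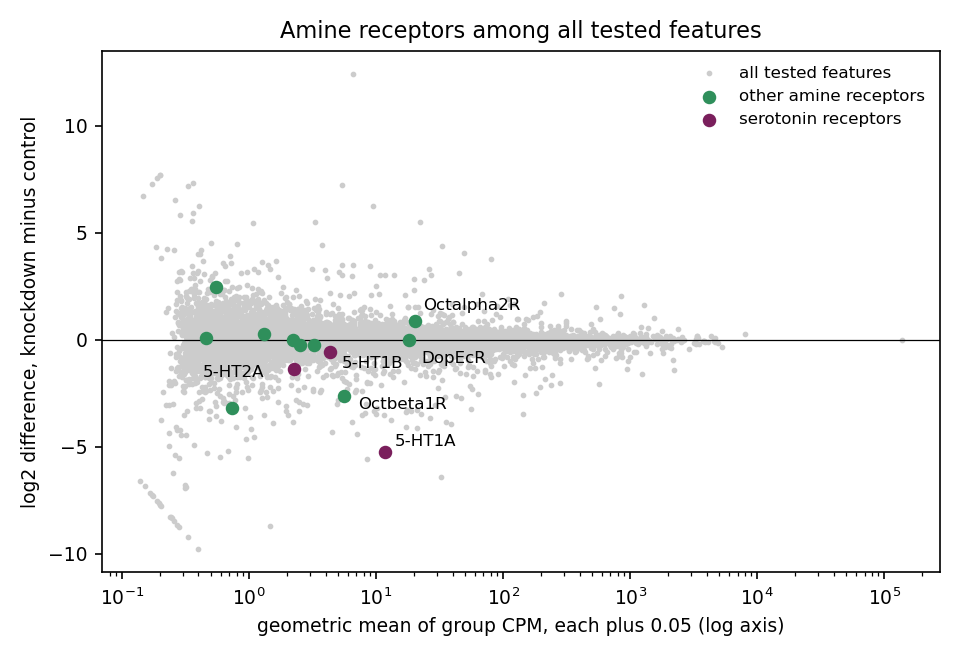
Each grey point is a tested feature, with the geometric mean of group CPM (each plus 0.05, log axis) against the fitted log2 difference of knockdown minus control; serotonin receptors are purple and other amine receptors green. 5-HT1A lies at −5.25 and Octbeta1R at −2.64.

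**Figure D5:**
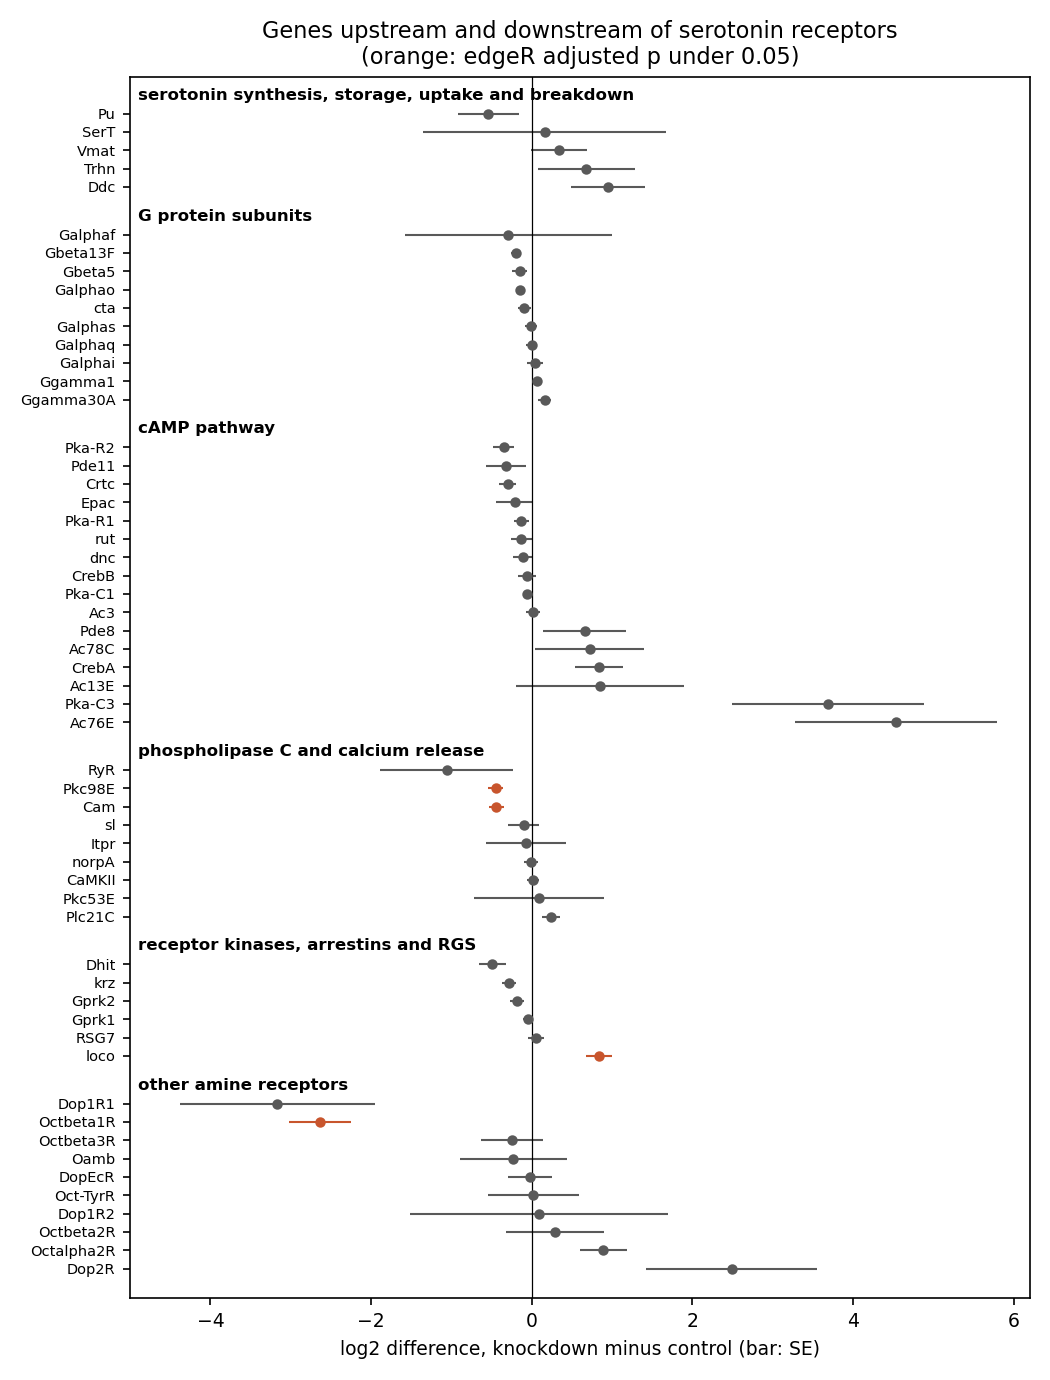
Points are fitted log2 differences of knockdown minus control and bars their standard errors, for the 56 tested genes of 6 lists; orange marks an edgeR adjusted p under 0.05. Orange points are Pkc98E, Cam and Octbeta1R below 0 and loco above 0, and wide bars belong to genes with few counts such as SerT and Ac76E.

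Markers of other cells were set beside the 5-HT1A result. Hemocyte markers summed to 0.967 to 5.75 CPM in control and 2.76 to 9.94 CPM in knockdown, with 2 of 5 (srp and NimC1) at 0 in every library. Of the 2 that were tested, Ppn, an extracellular matrix gene, passed as higher, where 2.1% of tested features did. It was at 0.144 CPM in control and 3.33 CPM in knockdown (log2 difference 4.50, SE 0.73, edgeR adjusted p 0.00425). Its counts passed the expression filter through knockdown alone. The other, Pxn, was at 2.388 and 2.545 CPM (edgeR adjusted p 0.985). Hml, which was not tested, had 40 counts in control replicate 2 and no count elsewhere. Photoreceptor markers summed to 1.34 to 2.44 and 1.67 to 2.09 CPM, with 2 of 5 (ninaE and Rh6) at 0 in every library. Progenitor and cell cycle markers were at 257.4 to 294.7 and 304.1 to 309.1 CPM, with none of 8 passing and a median log2 difference of −0.05. The genes went both ways. In knockdown stg, ase, CycE and CycB were at 106.7% to 131.1% of control, and dpn, mira, wor and insc at 72.3% to 86.98%. For 7 genes chosen for other optic lobe neurons, the sums were 1124 to 1196 and 670.4 to 724 CPM. Lim1 held most of these sums, at 1063 and 621.2 CPM, and alone passed, as lower, where 4.11% of tested features did. The sums therefore say little about the rest. Among these, hth was at 67.49 and 60.05 CPM, and no other group mean was above 7.57 CPM. In knockdown bsh was at 126.0% and ey at 185.8% of control, against 88.98% for hth, 73.38% for Dll, 80.42% for vvl and 54.46% for tup. Among 5 pan-neuronal genes 4 passed, with nSyb, brp and Syt1 lower at −0.48, −0.78 and −0.46, fne higher at 1.23 and elav at −0.02. Of all tested features, 6.21% passed in either direction, 4.11% as lower and 2.1% as higher. The part of these other cells and of neuronal state in the 5-HT1A difference was not tested.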

How the data were processed

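The authors deposited 1 table of raw counts per FlyBase feature, with 1 column per library. STAR, DESeq2 and the build BDGP6 are named in the submitters' processing notes, without role or version; the counting program, annotation release and strand setting are not given in the sources used here. Libraries were made with SMART-Seq v4, per the labels' protocols, which amplifies full-length cDNA without molecular tags, so limits drawn from counts cover counting error only.

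Symbols, positions and exon lengths came from Ensembl 115 (BDGP6.54) by identifier, matching 23851 of 23932 features. filterByExpr at 10 counts kept 9932 of 15551 features with any count. The test was the quasi-likelihood F test of edgeR 4.0.16 (R 4.3.3) with TMM factors, group as the only term and Benjamini-Hochberg adjustment over all 9932 features, at 0.05. Standard errors are the absolute log2 difference divided by the square root of F. An exact permutation test of 3 against 3 cannot go below 0.1, so none is given.

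The receptor genes and lists were chosen with earlier results of these data known. Named are the receptor genes, Drgx, list genes that passed plus up to 3 of the highest per list, the 5 features most like 5-HT1A, and overlapping or nearest genes; Trhn, SerT, Galphai, Galphas, Galphaq, Hn, Ac76E, Pka-C3, Arr1, Arr2, TyrR, TyrRII, Galphaf, Gbeta76C, Dop1R1, Dop2R, botv, ena and single marker genes were added after their values were seen. AANAT1, in the serotonin list, was not analysed here. Alternatives were DESeq2 1.42.0, limma-voom (limma 3.58.1), 2 other scalings, 2 other filters, a replicate block and leaving out each library.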

Additional observations from a re-analysis of the deposited data

How the results depend on the processing

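The count of called features was 617 (209 higher and 408 lower), 952 with DESeq2 and 399 to 556 when 1 library was left out, with the lowest count without control replicate 2; 66.13% of calls were lower, 62.4% with library size only and 59.98% with DESeq2 (381 higher and 571 lower). The log2 difference of 5-HT1A was −5.50 to −5.04 with 1 library left out, that of 5-HT1B −0.68 to −0.36 and that of 5-HT2A −1.90 to −0.80, and 5-HT2A was at −2.34 with limma-voom. 5-HT1A's share of the receptor sum was 85.57% to 89.48% in control and 20.28% to 23.42% in knockdown with 1 library left out. The labels do not state whether same-numbered libraries were paired. Their correlations across features were 0.045, −0.0134 and −0.0387, which cannot show whether they were prepared together. With the replicate block the count of calls was 556 and Gbeta13F became the 1 called G protein subunit. Called G protein subunits were also 1 with DESeq2 and with limma-voom, and 0 to 1 with 1 library left out. Cyclic AMP genes called were 1 (Ac76E) with at least 1 count in total, 2 (with Pka-C3) with DESeq2 and 0 to 1 with 1 library left out. Ac76E and Pka-C3 passed the main expression filter through knockdown alone. With 1 library left out, called genes were 0 to 2 for phospholipase C and calcium, 0 to 1 for kinases, arrestins and RGS, and 1 to 2 for other amine receptors. DESeq2 called 2 in each of the latter lists, adding krz and Octalpha2R, and at least 1 count in total gave 2 amine receptors, adding TyrR. CG15117 was at −3.03 with the replicate block. No serotonin synthesis gene was called in any alternative. The cause of these shifts was not tested. For 9 features followed singly (Pkc98E, Cam, loco, Octbeta1R, Ir56a, CG15117, CG9775, Cenp-C and the roo copy), 103 values under alternatives kept their direction and side of the threshold. Another 12 lost the call, all with 1 library left out, with 0 reversals. CG15117, CG9775, Cenp-C and the roo copy were not called in the main fit and so had no call to lose. Calls were lost 4 times each for Pkc98E and Cam, 2 times each for loco and Ir56a, and never for Octbeta1R. 5-HT2A had under 10 counts in knockdown replicate 3 and so no value with at least 10 counts in every library.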

Other observations

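Genes of other amine receptors near or under the expression filter also differed in where their counts lay. TyrR, a tyramine receptor gene, had 0, 1 and 0 counts in control and 39, 3 and 44 in knockdown, and its neighbour in the family TyrRII had 0 counts in each control library and 5, 0 and 33 in knockdown. Dop2R, the gene for the inhibitory dopamine receptor, had 0, 16 and 8 counts in control and 48, 36 and 29 in knockdown. Its log2 difference was 2.49 (SE 1.06, edgeR adjusted p 0.279). Dop2R passed the filter through its knockdown libraries, so this difference is no support for a rise. Dop1R1, a dopamine receptor gene that raises cyclic AMP, had 9, 75 and 138 counts in control and 9, 0 and 14 in knockdown (−3.17, SE 1.21, edgeR adjusted p 0.212). TyrR and TyrRII were under the filter and not tested in the fit over all 6 libraries, and the dopamine receptor genes did not pass in it; TyrR was called when genes with at least 1 count in total were kept.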
